A study of Mus musculus with 4 samples.

Results

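The 10 genes described here belong to the oxygen-sensing pathway that centres on the hypoxia-inducible factors (HIFs), and they were followed in brain endothelial cells of newborn mice with and without the Pdcd1 (PD-1) gene. They are Hif1a, Epas1, Arnt, Vhl, Egln1, Egln3, Bnip3, Ankrd37, Ndrg1 and Ddit4. They were chosen by name, and 10 of 10 were found among the 21578 genes of the deposited tables. None of the 10 passed the study's criterion for a difference between the genotypes. The transcripts of Hif1a, Epas1, Arnt, Vhl and Bnip3 each differed by at most 1.39-fold between any of the libraries. The genotypes did not overlap for 4 of the 10, with Epas1, Egln1 and Ndrg1 higher and Egln3 lower in Pd1cKO-Tie2, where 35.8% of all tested genes did not overlap. None of these differences passed the test, and the separation of Epas1 depended on how the libraries were scaled. Among further genes of the pathway, Hif3a was higher and Car9 and Slc16a3 were lower in Pd1cKO-Tie2 by that criterion. They were 1 of 23 regulators and 2 of 50 targets tested, shares close to the 4.02% of all tested genes. None of these calls held after adjustment for all genes tested.

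The control group were Pd1fl/fl mice, which carry floxed Pdcd1 alleles, and the deleted group were Pd1cKO-Tie2 mice, which carry the same floxed alleles and the Tie2-Cre transgene. Both were C57BL/6 mice at P0, the day of birth (postnatal day 0). The Tie2 promoter drives Cre in endothelial cells and also in much of the blood cell lineage, so the deletion need not be limited to vessels. Cells of the cerebral cortex were stained for CD31 and CD45 and sorted by flow cytometry, and RNA of the endothelial fraction was sequenced with 2 libraries per genotype. Nothing in the labels says whether animals were pooled or whether the 2 libraries of a genotype came from separate animals, so the p-values measure only the spread between these libraries. Replicate numbers are those of the table columns. For 1 Pd1cKO-Tie2 column, replicate 2 here, no sample label has the same number, and it was therefore used by its genotype alone.

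HIFs are pairs of an oxygen-regulated alpha subunit, encoded by Hif1a, Epas1 (HIF-2alpha) or Hif3a, and the stable partner encoded by Arnt. When oxygen is ample, prolyl hydroxylases of the Egln family mark the alpha subunit, and the von Hippel-Lindau protein Vhl directs the marked protein to the proteasome. When oxygen is scarce, the alpha subunit is no longer marked, joins Arnt and switches on genes of glucose use, vessel growth and mitochondrial turnover. The control acts mainly on the protein, so the mRNA of an alpha subunit need not follow its activity, whereas the mRNA of the target genes reads it out more directly. In the developing brain Epas1 is abundant in endothelium. The hydroxylases Egln1 and Egln3 are themselves HIF targets, which closes a feedback loop.

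The pathway's DNA element has the core letters ACGTG or GCGTG. RefSeq promoter windows (250 bases before to 50 bases after a transcript start, GRCm38.p6) were matched for 8 of the 10 genes, all but Epas1 and Ndrg1, and both words were searched on both strands, with overlapping matches joined into 1 stretch. At least 1 stretch lay in 7 of the 8 windows and at least 2 lay in 5 of them, against 43.8% and 17.3% of all 32851 windows. Both words hold the letters CG, and the 8 windows were 54.7 to 86% G or C. The base composition of all windows was not compared, and its part in these shares was not tested. The windows of 5 genes known as HIF targets were chr8:124949205-124949504 for Egln1, chr12:54203825-54204124 for Egln3, chr7:138909457-138909756 for Bnip3, chr8:45999801-46000100 for Ankrd37 and chr10:59951721-59952020 for Ddit4, all on the minus strand. The 30 bases around each match in them are shown, 5′ to 3′ on the gene's strand and with the match in capitals, because they are the letters of the HIF element near a RefSeq start of these genes. The counts are per gene and do not show which start was used. The windows of Ankrd37 and Hif1a, both among the 5 with at least 2 stretches, lie wholly inside the spans of their genes. A match is a description of these letters and no sign of binding.
Egln1, match 126 bases before the start: gcccggcccgccGCGTGcgcgcggcccccg
Egln1, match 68 bases before the start: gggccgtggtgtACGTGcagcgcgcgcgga
Egln3, match 229 bases before the start: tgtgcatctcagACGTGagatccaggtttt
Bnip3, matches 117, 108 and 99 bases before the start: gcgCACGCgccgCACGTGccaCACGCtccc
Bnip3, match 35 bases before the start: ggctccgccgccGCGTGcgtcccgccccgc
Ankrd37, match 241 bases before the start: cccagcagtACGTGcctagctcggctcgca
Ankrd37, match 155 bases before the start: ccttcactgcgCACGCGTGctgcggccgcc
Ankrd37, match 6 bases before the start: cagtgtttgggtACGTGaggccgcagcggg
Ddit4, match 187 bases before the start: agaacgttgcgaACGTGcgcccggtgccta
Ddit4, match 115 bases before the start: gacctggaggggGCGTGgcctcgccgggag
Bnip3 held the most stretches, 4, with 3 of them inside 30 bases. The Vhl window held none.

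The authors' read counts per gene were compared, and levels are given as CPM, reads counted per 1000000 reads of the library, scaled by the TMM method of edgeR. The Pd1fl/fl libraries held 14359990 and 13715837 counts, those of Pd1cKO-Tie2 24147311 and 14157027. Where a gene had 0 counts, up to 3 remain possible (0.126 to 0.22 CPM, counting error only). The deleted gene Pdcd1 was counted 32 times in the first Pd1fl/fl library and 0 times in the other 3 libraries. It was not tested, and the second control library gives no measure of its loss.

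The libraries carried the endothelial markers and also sizeable levels of mural and microglial markers, and some marker lists moved with genotype or with 1 library. The 14 endothelial markers summed to 11421 and 10378 CPM in Pd1fl/fl and to 13429 and 14358 CPM in Pd1cKO-Tie2, led by the tight junction gene Cldn5, and none was at 0. The mural gene Rgs5 stood at 4916 and 3220 CPM in the Pd1fl/fl libraries beside 5516 and 4774 CPM of Cldn5. Per kilobase of exon, Rgs5 was at 1081 and 708 CPM there and Cldn5 at 3896 and 3372 CPM. The microglial gene Csf1r stood at 508 and 620 CPM in Pd1fl/fl beside 413.2 and 409.8 CPM of the endothelial gene Pecam1 (CD31). In Pd1cKO-Tie2 Csf1r was below Pecam1, at 235 and 434 CPM beside 432 and 576 CPM. The 10 microglial markers, led by Csf1r, summed to 2045 and 2521 CPM in Pd1fl/fl and to 777 and 1724 CPM in Pd1cKO-Tie2. The 10 astroglial markers, led by Ptprz1, summed to 1452 and 1575 CPM in Pd1fl/fl and to 1057 and 882 CPM in Pd1cKO-Tie2. Pd1fl/fl replicate 1 stood apart by 9 neutrophil markers, which summed to 916 CPM there against 25.4, 55.6 and 2.49 CPM in the other libraries. The neutrophil granule gene Ltf had 3132 counts in that library and 0 in the others. The 10 mural markers (Rgs5 leading) summed to between 3756 and 5747 CPM, the 10 neuronal markers (Dcx leading) to between 991 and 1322 CPM, the 10 erythroid markers (Hba-a1 leading) to between 730 and 1335 CPM and the 8 oligodendroglial markers (Olig1 leading) to between 105 and 203 CPM. The part of these cells in the results that follow was not tested, and in bulk RNA fewer cells of a type cannot be told apart from less RNA per cell.

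Epas1 and Hif1a were the most abundant of the 10 genes. Hif1a (ENSMUSG00000021109, chromosome 12, 73901375 to 73947530, plus strand of GRCm38, protein coding), the alpha subunit found in most cells, stood at 487 and 351 CPM in Pd1fl/fl and at 392 and 363 CPM in Pd1cKO-Tie2. Pd1fl/fl replicate 1, the library with neutrophil transcripts, was the highest, and the other Pd1fl/fl library was the lowest of all, so that the genotypes overlapped. The log2 fold change, Pd1cKO-Tie2 over Pd1fl/fl, was -0.15 (SE 0.19, adjusted p = 0.9998, edgeR's quasi-likelihood test with Benjamini-Hochberg adjustment), and it was 0.11 without Pd1fl/fl replicate 1. Exons of Hif1a share 148 bases with a predicted gene on the same strand and 330 bases with one on the other strand.

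Epas1 (ENSMUSG00000024140, chromosome 17, 86753907 to 86833410, plus strand), the alpha subunit prominent in endothelium, stood at 712.0 and 699.7 CPM in Pd1fl/fl and at 722 and 820 CPM in Pd1cKO-Tie2. Both Pd1cKO-Tie2 libraries were thus the higher ones, 1 of them by a narrow margin. With counts scaled by library totals alone the genotypes overlapped, and the log2 fold change was 0.06. The log2 fold change was 0.13 (SE 0.13, 95% interval -0.19 to 0.44), an interval that stays below a 2-fold change in either direction. Per kilobase of exon, Epas1 was more abundant than Hif1a in 4 of 4 libraries, by 1.54- and 2.11-fold in Pd1fl/fl and by 1.94- and 2.38-fold in Pd1cKO-Tie2. The ratio was lowest in the library where Hif1a was highest, and the genotypes overlapped in it.

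Arnt (ENSMUSG00000015522, chromosome 3, 95434388 to 95497240, plus strand), the shared partner of the alpha subunits, stood at 67.3 and 62.1 CPM in Pd1fl/fl and at 78.2 and 59.8 CPM in Pd1cKO-Tie2. The Pd1cKO-Tie2 libraries were the highest and the lowest of the 4 (log2 fold change 0.09, SE 0.24). Per kilobase of exon, Arnt was below Epas1 by 13.2- to 19.6-fold and below Hif1a by 6.82- to 9.84-fold, depending on the library. The length is that of all annotated exons of a gene joined, 8007 bases for Arnt, so these are not ratios of transcript numbers.

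**Figure D1:**
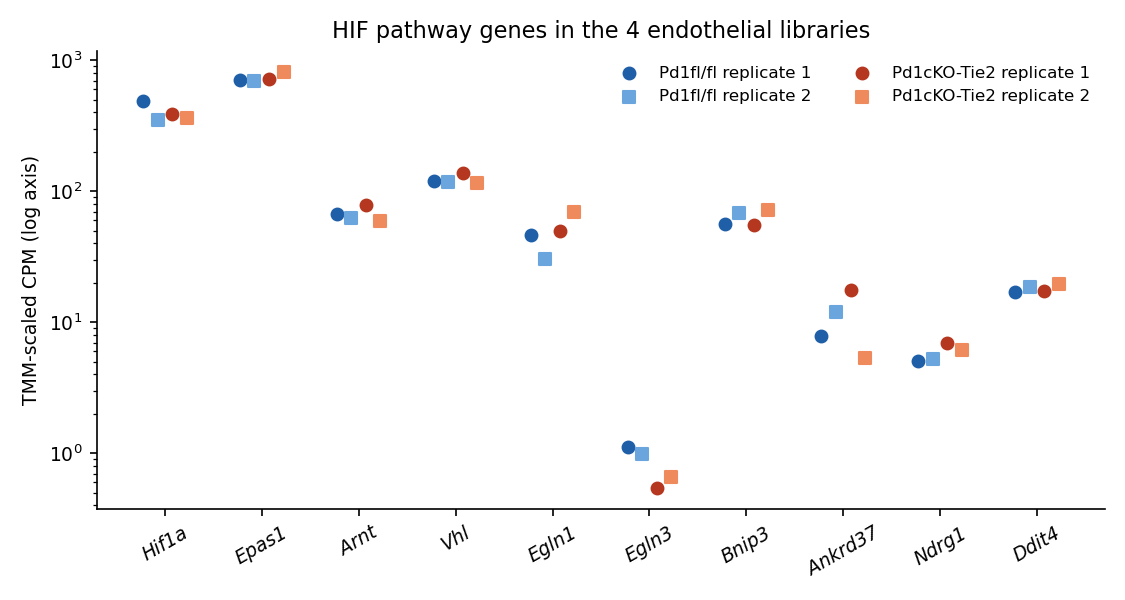
TMM-scaled CPM (log axis) of the 10 genes in each of the 4 libraries; blue marks the Pd1fl/fl and red the Pd1cKO-Tie2 libraries. The libraries of a gene lie close together except for Egln1, Egln3 and Ankrd37, and Ankrd37 has its highest and its lowest value in the Pd1cKO-Tie2 libraries.

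The genes that restrain HIF came next. Vhl (ENSMUSG00000033933, chromosome 6, 113623959 to 113631633, plus strand), which recognises the hydroxylated alpha subunit, stood at 118.9 and 118.6 CPM in Pd1fl/fl and at 138 and 115 CPM in Pd1cKO-Tie2. The Pd1fl/fl libraries were nearly equal and lay between those of Pd1cKO-Tie2 (log2 fold change 0.09, SE 0.19, 95% interval -0.37 to 0.56).

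Egln1 (ENSMUSG00000031987, chromosome 8, 124908587 to 124949324, minus strand), which encodes PHD2, the main oxygen sensor of the pathway, showed the largest difference among the 8 members with a mean of at least 10 CPM. It stood at 46.4 and 30.4 CPM in Pd1fl/fl and at 49.5 and 69.9 CPM in Pd1cKO-Tie2. Both Pd1cKO-Tie2 libraries were higher, yet the nearest libraries of the 2 genotypes were closer to each other than either was to its own partner. The log2 fold change was 0.64 (SE 0.33, 95% interval -0.18 to 1.45, unadjusted p = 0.105, adjusted p = 0.906, edgeR), equal to 1.55-fold. It ran from 0.37 without Pd1fl/fl replicate 2 or without Pd1cKO-Tie2 replicate 2 to 0.98 without Pd1fl/fl replicate 1, where the unadjusted p was 0.0439 (edgeR) and the change stayed under 2-fold.

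Egln3 (ENSMUSG00000035105, chromosome 12, 54178981 to 54203860, minus strand), which encodes PHD3, was the rarest member, with 16 and 14 reads in the Pd1fl/fl libraries and 13 and 9 in those of Pd1cKO-Tie2. In CPM these were 1.11 and 0.986 against 0.544 and 0.659, so both Pd1cKO-Tie2 libraries were lower. The log2 fold change of -0.80 had an SE of 1.45 and a 95% interval from -4.38 to 2.80, so that no difference was detectable. Per kilobase, Egln1 exceeded Egln3 by 31.0- and 22.8-fold in Pd1fl/fl and by 67.3- and 78.5-fold in Pd1cKO-Tie2. The ratio was higher in both Pd1cKO-Tie2 libraries, and it rests on the few Egln3 counts. Egln2, the third hydroxylase of the family, was more abundant per kilobase than Egln1 in every library, by 1.27- to 3.10-fold, with overlapping genotypes.

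Of the target genes, Bnip3, Ndrg1 and Ddit4 varied little between libraries and Ankrd37 varied most. Bnip3 (ENSMUSG00000078566, chromosome 7, 138890836 to 138909519, minus strand), a receptor on the mitochondrial outer membrane that brings mitochondria to autophagosomes, stood at 56.3 and 68.4 CPM in Pd1fl/fl and at 55.3 and 71.7 CPM in Pd1cKO-Tie2. The highest and the lowest library were both Pd1cKO-Tie2, and the log2 fold change was 0.03 (SE 0.25), with the opposite sign when libraries were scaled by total count alone (-0.04). Its relative Bnip3l, also a HIF target, was 4.11- to 5.80-fold more abundant per kilobase. Exons of Bnip3 share 504 bases with a predicted gene on the other strand, and whether reads were counted by strand is not stated.

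Ankrd37 (ENSMUSG00000050914, chromosome 8, 45996902 to 46005707, minus strand), a small ankyrin repeat gene known as a direct HIF target, stood at 7.84 and 12.1 CPM in Pd1fl/fl and at 17.7 and 5.35 CPM in Pd1cKO-Tie2. The 2 Pd1cKO-Tie2 libraries, 3.30-fold apart, enclosed both Pd1fl/fl libraries. The log2 fold change of 0.21 (SE 0.69) became -0.88 without Pd1cKO-Tie2 replicate 1 and 0.83 without Pd1cKO-Tie2 replicate 2, so its direction rests on single libraries. Its exons share 349 bases with Lrp2bp and 57 bases with Ufsp2, both on the other strand. Reads from these shared bases cannot be assigned to a single gene without strand, and how they were counted is not stated.

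Ndrg1 (ENSMUSG00000005125, chromosome 15, 66929321 to 66969640, minus strand), a stress-responsive gene raised by hypoxia in many cell types, stood at 5.06 and 5.21 CPM in Pd1fl/fl and at 6.91 and 6.15 CPM in Pd1cKO-Tie2. Both Pd1cKO-Tie2 libraries were higher, by less than the model's error (log2 fold change 0.35, SE 0.65, 95% interval -1.26 to 1.95). Its relative Ndrg2 was 33.9- to 102-fold more abundant per kilobase, and Ndrg3 5.91- to 7.15-fold. Exons of Ndrg1 share 556 bases with predicted genes on the other strand. Of the 3 other NDRG genes, 0 passed the criterion, with a median log2 fold change of 0.14.

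Ddit4 (ENSMUSG00000020108, chromosome 10, 59949669 to 59951834, minus strand), which encodes REDD1, a brake on mTORC1 signalling that hypoxia and glucocorticoids both raise, stood at 17.1 and 18.7 CPM in Pd1fl/fl and at 17.2 and 19.5 CPM in Pd1cKO-Tie2. The libraries of the genotypes alternated, and the largest was 1.14-fold above the smallest. The log2 fold change was 0.04 (SE 0.35, 95% interval -0.82 to 0.90), and -0.03 under scaling by total count.

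**Figure D2:**
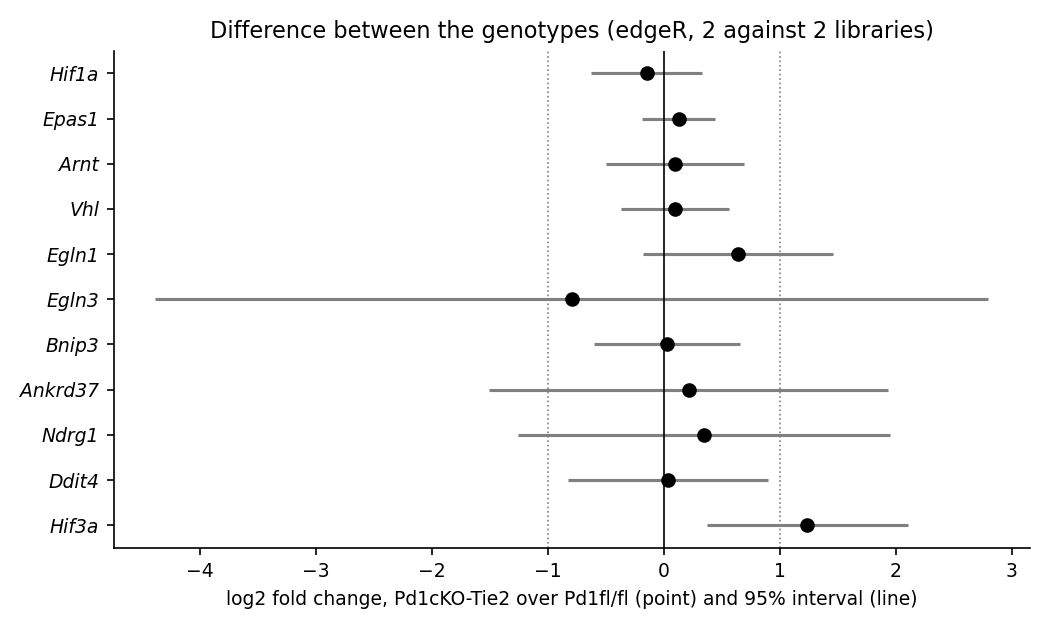
Log2 fold change of Pd1cKO-Tie2 over Pd1fl/fl (points) with 95% intervals (lines) for the 10 genes and for Hif3a, from edgeR with 2 libraries per genotype; dotted lines mark a 2-fold change. The intervals of the 10 genes all include 0, that of Egln3 is the widest (-4.38 to 2.80), and that of Hif3a lies above 0 (0.37 to 2.10).

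Across the 10 genes, 0 passed the study's criterion, which asks for a 2-fold or larger change and a p no higher than 0.05, where 4.02% of the 15909 tested genes did (640 genes; 1.41% higher and 2.61% lower). DESeq2 and limma-voom also called 0 of the 10 by this criterion, against 4.34% and 3.17% of the genes they tested. An unadjusted p under 0.05 was reached by 0 of the 10 and by 6.39% of all tested genes in edgeR. An adjusted p under 0.05 was reached by 0 members, as by 0 genes (0%) in edgeR and 0.744% of genes in DESeq2. With so few members these counts do not set them apart from other genes. The adjusted p of the members lay between 0.906 and 0.9998 in edgeR. All 10 passed the filter on low counts. The 2 genotypes did not overlap for 4 of the 10, Epas1, Egln1 and Ndrg1 higher and Egln3 lower in Pd1cKO-Tie2, against 35.8% of all tested genes (17.7% higher and 18.1% lower), a share close to the background. Epas1 overlapped when counts were scaled by library totals alone. The median log2 fold change was 0.09 over the members and -0.00381 over all tested genes. It was positive for 8 of the 10, of which Bnip3 and Ddit4 turned negative under scaling by total count.

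In 7 of the 10 members the highest library was less than 1.5-fold above the lowest. Among the 8 members with a mean of at least 10 CPM this held for 6, and among the 9449 tested genes with that mean and a count in every library it held for 40.7%. The members were not matched to these genes by level, and the part of level in this difference was not tested. The exceptions among the 10 members were Egln1 (2.30-fold), Egln3 (2.04-fold) and Ankrd37 (3.30-fold). For Hif1a, Epas1, Arnt, Vhl, Bnip3 and Ddit4 the 95% interval of the change excluded a 2-fold difference in both directions. Those of Egln3, Ankrd37 and Ndrg1 included it in both directions, and that of Egln1 included a 2-fold increase.

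Per kilobase of exon, the order of the levels was Epas1 (mean of the 4 libraries 132 CPM per kb), Hif1a (67.5), Vhl (40.9), Bnip3 (27.8), Egln1 (13.6), Ddit4 (10.3), Arnt (8.35), Ankrd37 (6.97), Ndrg1 (0.884) and Egln3 (0.310). The ranges over the 4 libraries of neighbours in this order were separate at the top, from Epas1 to Egln1, and at the bottom, from Ankrd37 to Egln3. Egln1, Ddit4 and Arnt each overlapped the next gene, so the order from Egln1 to Ankrd37 is not resolved. Among the 10, Epas1, Hif1a and Vhl thus stood above both hydroxylases and the target genes by this measure. It divides by all annotated exons of a gene joined, so it is not a count of transcripts.

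**Figure D3:**
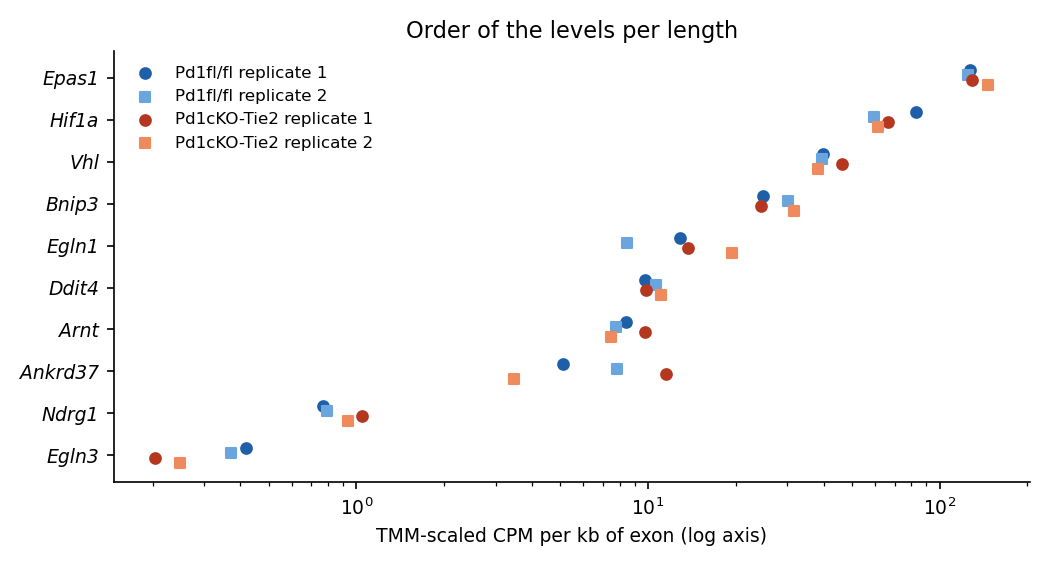
TMM-scaled CPM per kilobase of exon (log axis) of the 10 genes in each library, ordered by the mean; colours as by genotype and replicate in the key. Epas1 leads in every library, Egln1, Ddit4, Arnt and Ankrd37 overlap, and Egln3 is the lowest.

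Of 24 further regulators of HIF, 23 were tested and 1 was called, beside 4.02% of all tested genes. Hif3a, the alpha subunit whose variants can restrain the other alpha subunits, stood at 17.1 and 12.5 CPM in Pd1fl/fl and at 30.5 and 39.4 CPM in Pd1cKO-Tie2. The genotypes did not overlap, with a log2 fold change of 1.24 (SE 0.35, 95% interval 0.37 to 2.10, unadjusted p = 0.0132, adjusted p = 0.735, edgeR), equal to 2.35-fold. The call was lost without Pd1fl/fl replicate 2 (log2 fold change 1.03) and without Pd1cKO-Tie2 replicate 2 (1.04), where the unadjusted p was 0.0587 and 0.0699 (edgeR). Per kilobase, Hif1a exceeded Hif3a by 32.4- and 31.8-fold in Pd1fl/fl and by 14.6- and 10.5-fold in Pd1cKO-Tie2.

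The next smallest p-values among the regulators belonged to 2 inhibitors of HIF activity. Hif1an (FIH), the asparaginyl hydroxylase that blocks the binding of coactivators, stood at 40.9 and 60.4 CPM in Pd1fl/fl and at 38.2 and 33.2 CPM in Pd1cKO-Tie2 (log2 fold change -0.51, SE 0.30, adjusted p = 0.933, edgeR), and its log2 fold change was -0.19 without Pd1fl/fl replicate 2. Cited2, which competes with HIF for the same coactivators, stood at 15.3 and 16.4 CPM against 10.8 and 8.86 CPM (log2 fold change -0.69, SE 0.42, adjusted p = 0.941, edgeR). Neither passed the test, although the Pd1cKO-Tie2 libraries were the lower ones for both. The median over the regulators was 0.11, and their groups did not overlap for 6 of the 23, beside 35.8% of all tested genes.

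Of 55 further HIF target genes, 52 were in the tables and 50 were tested. Of these, 2 were called, both lower in Pd1cKO-Tie2, beside 4.02% of all tested genes. Slc16a3, the lactate exporter MCT4, stood at 20.3 and 19.3 CPM in Pd1fl/fl and at 9.88 and 7.11 CPM in Pd1cKO-Tie2. Both Pd1cKO-Tie2 libraries were lower (log2 fold change -1.22, SE 0.42, unadjusted p = 0.0288, adjusted p = 0.738, edgeR), and the call was lost without any 1 of 3 libraries, Pd1fl/fl replicate 1 (-1.18), Pd1fl/fl replicate 2 (-1.25) or Pd1cKO-Tie2 replicate 2 (-0.996). Car9, a carbonic anhydrase that is a classical hypoxia marker, was counted 11 times in each Pd1fl/fl library and 0 times in each of Pd1cKO-Tie2. With 3 counts in place of each 0 it was 4.45-fold lower, a value that takes the 11 counts as exact. The 95% interval of its log2 fold change ran from -12.9 to -0.48 (unadjusted p = 0.0396, edgeR), so a change below 2-fold was not excluded. The call was lost without either Pd1cKO-Tie2 library and in DESeq2, limma-voom, edgeR without the filter on low counts and edgeR with the replicate number as a block (unadjusted p = 0.206), and Car9 was not tested without either Pd1fl/fl library.

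The 3 target genes with the smallest p-values were higher in Pd1cKO-Tie2, by less than 2-fold. Slc2a1, the glucose transporter GLUT1 of the blood-brain barrier, stood at 3543 and 3624 CPM in Pd1fl/fl and at 4621 and 4509 CPM in Pd1cKO-Tie2. Its log2 fold change was 0.35 (SE 0.08, unadjusted p = 0.00658, adjusted p = 0.735, edgeR). Angptl4, a secreted inhibitor of lipoprotein lipase, stood at 265 and 190 CPM against 361 and 357 CPM (0.66, SE 0.20). Flt1, the VEGF receptor VEGFR1, stood at 501 and 540 CPM against 684 and 682 CPM (0.39, SE 0.12). All 3 had both Pd1cKO-Tie2 libraries above both Pd1fl/fl libraries, and none passed the criterion. The endothelial markers, a list that also holds Flt1, had a median log2 fold change of 0.31, with 13 of 14 positive. None was called, beside 4.02% of all tested genes. Both Pd1cKO-Tie2 libraries were the higher ones for 13 of the 14, beside 17.7% of all tested genes. An unadjusted p under 0.05 (edgeR) was reached by 5 of the 14, all higher, beside 6.39% of all tested genes. The part of this shift in the 3 differences was not tested.

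Over the 50 tested targets the median log2 fold change was 0.06, with 28 positive and 22 negative. An unadjusted p under 0.05 was reached by 4 that were higher and 3 that were lower, beside 6.39% of all tested genes. The groups did not overlap for 15 that were higher and 8 that were lower, beside 17.7% and 18.1% of all tested genes. Of 14 glycolytic HIF targets, which run from the hexokinases to Ldha, 0 were called, beside 4.02% of all tested genes. Their log2 fold changes were positive for 11 and negative for 3, with a median of 0.15, where 7888 of all 15909 tested genes were positive. An unadjusted p under 0.05 (edgeR) was reached by 1, which was lower. Their groups did not overlap for 4 that were higher and 2 that were lower. Vegfa, the growth factor induced by HIF in many tissues, was counted 2 times in each Pd1fl/fl library and 10 and 7 times in those of Pd1cKO-Tie2, and was not tested. Car12, Lox and Epo were not matched.

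**Figure D4:**
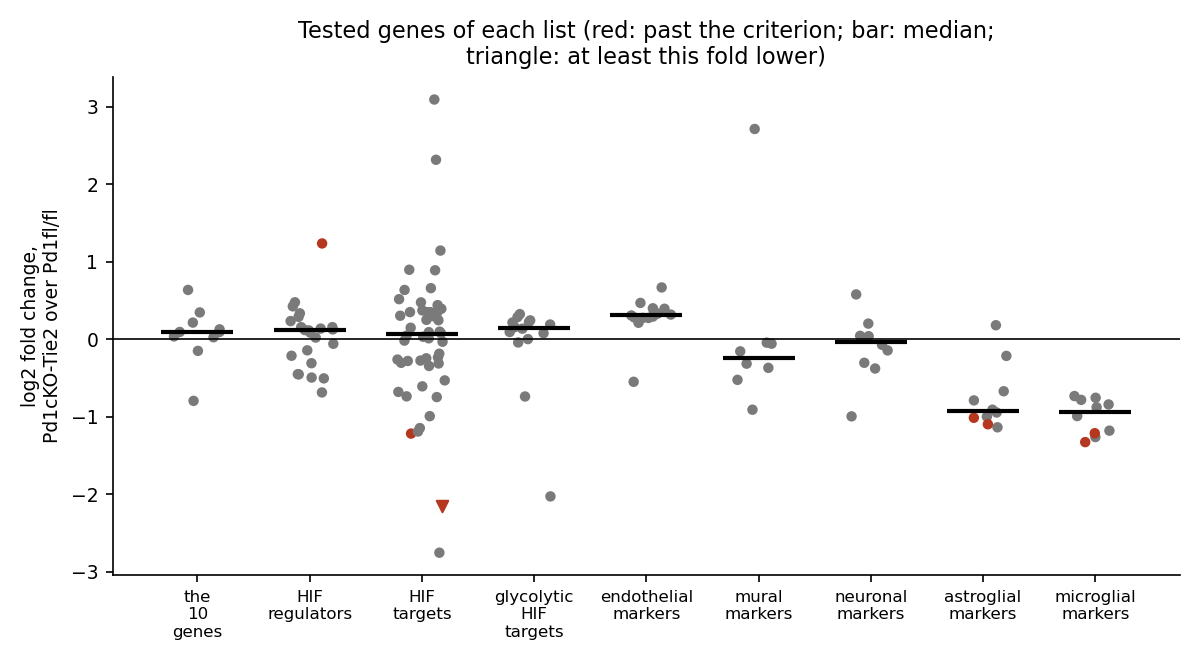
Log2 fold change of Pd1cKO-Tie2 over Pd1fl/fl for each tested gene of the 10 HIF pathway genes, 3 further lists of the pathway and 5 lists of cell type markers. Red marks genes past the criterion and bars are medians. The triangle is Car9, at 0 in both Pd1cKO-Tie2 libraries, drawn with 3 counts in place of each 0. That value leaves out the error of the Pd1fl/fl counts and is no firm lower limit of the change. The pathway lists centre near 0 and the endothelial markers lie mostly above it (median 0.31). The astroglial and microglial markers lie mostly below it (medians -0.93 and -0.93).

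In lists of related processes 0 or 1 gene per list was called, where 4.02% of all tested genes were called. With lists this short, these counts do not set them apart from other genes. Of 8 mitophagy genes, Bnip3l among them, 0 were called (median log2 fold change 0.21). Of 10 genes around mTORC1, which Ddit4 restrains, 0 were called (median -0.03). Of 9 glucocorticoid targets tested, a list without Ddit4, 1 was called, Fkbp5, a chaperone of the glucocorticoid receptor. Fkbp5 stood at 33.2 and 60.4 CPM in Pd1fl/fl and at 14.3 and 26.4 CPM in Pd1cKO-Tie2 (log2 fold change -1.20, SE 0.46, unadjusted p = 0.0404, adjusted p = 0.753, edgeR). The call was lost without Pd1fl/fl replicate 2 (-0.71) and without Pd1cKO-Tie2 replicate 1 (-0.82), and the median of that list was -0.00234. Of 10 targets of the stress factor ATF4, 0 were called (median -0.10).

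Among the marker lists, 0 endothelial, mural, neuronal, oligodendroglial and erythroid markers were called, beside 4.02% of all tested genes. Of the others, Fabp7 and Hes5 (astroglial), Tmem119 and Trem2 (microglial) and S100a8 and Ngp (neutrophil) were called lower in Pd1cKO-Tie2. Both Pd1cKO-Tie2 libraries were the lower ones for 7 of 10 astroglial and 8 of 10 microglial markers, beside 18.1% of all tested genes. An unadjusted p under 0.05 (edgeR) was reached by 6 astroglial and 5 microglial markers, all lower, beside 6.39% of all tested genes. The calls of S100a8 and Ngp rest on Pd1fl/fl replicate 1, with 531 and 5950 counts there against 7 and 0 in Pd1fl/fl replicate 2. Their genotypes overlapped. The mural genes Acta2 and Myh11, the erythroid gene Epb42 and the neutrophil genes Ltf, Ngp, Camp, Elane and Mpo were at 0 in at least 1 library.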

How the data were processed

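RNA of sorted brain endothelial cells was sequenced in 2 Pd1fl/fl and 2 Pd1cKO-Tie2 libraries. The submitters' processing notes name TopHat2 2.0.12, Bowtie2 2.2.3, HTSeq 0.6.0 and mm9, whereas the deposited gene positions follow GRCm38, with 90% identical to those of GENCODE M21, the annotation used here for exon lengths and overlaps. Exon length is that of the exons of all annotated transcripts of a gene, with overlapping ones joined. The strand setting is not given in the sources used here. The counts deposited by the authors are whole reads per gene. The CPM values deposited by the authors are counts over the library total, with a constant in place of 0, and served only to recover totals. The authors' fold changes and p-values of single pairs of libraries were not used.

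The 4 tables were joined by gene identifier, with 0 for genes missing from a library. In all, 10 broken lines were skipped. Counts were scaled by TMM and tested with edgeR 4.0.16 (quasi-likelihood F test, R 4.3.3) for the 15909 genes kept by filterByExpr, with genotype as the only term. The criterion is that of the study, a fold of at least 2 with p of 0.05 or less. Benjamini-Hochberg adjustment ran over all tested genes. The biological coefficient of variation, common to all genes, was 0.61. The script was tested on simulated counts. Alternatives were limma-voom (limma 3.58.1), DESeq2 1.42.0 on every counted gene, no low-count filter, a minimum of 10 counts per library, scaling by upper quartile, RLE or total count, a block for the column number, and the omission of each library (the lone library left is then assumed to vary like the others). Promoter windows are from RefSeq.

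Members and lists were chosen with earlier results of these data known. Named are all members, genes of other lists past the criterion, the 3 smallest p-values among HIF regulators and among HIF targets, and the leading and absent markers. Vegfa, Bnip3l, Egln2, Ndrg2, Ndrg3 and Pecam1 were named in addition, after their values were seen.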

Additional observations from a re-analysis of the deposited data

How the results depend on the processing

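The count of members past the criterion stayed at 0 under all 12 alternatives. Among the HIF targets the count fell from 2 to 1 in DESeq2, in limma-voom, without the low-count filter, with at least 10 counts in every library (which removes Car9) and with the replicate block, and it lay between 1 and 3 when a library was left out. The HIF regulator count was 0 to 1 and the count over all genes 689 to 877 when a library was left out. The median log2 fold change of the targets was then -0.0103 to 0.18, and that of the members 0.05 to 0.13. Libraries with the same column number did not deviate together (correlation -0.0263), and the replicate block gave 445 genes in all and Egln1 at 0.645, and it ended the call of Car9. Bnip3 reversed to -0.0152 in limma-voom and to -0.0417 under total count scaling, as Ddit4 did to -0.0282. Leaving out a library gave -0.37 to 0.11 for Hif1a, -0.10 to 0.28 for Arnt, -0.0367 to 0.225 for Vhl, -0.17 to 0.21 for Bnip3, -0.88 to 0.83 for Ankrd37 and -0.0489 to 0.132 for Ddit4. The cause of these changes was not tested. Egln3 rested on 9 to 16 counts per library and Ndrg1 on 73 to 165, and the part of depth in their wide intervals was not tested.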
